A study of Mus musculus with 4 samples.

Results

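Eicosanoid synthesis genes make and process the oxygenated products of arachidonic acid. The 10 genes described here are Pla2g4a, Alox5, Alox5ap, Lta4h, Ltc4s, Alox12, Alox15, Ptgs1, Ptgs2 and Ptges, and they were taken by name: all 15 probes, of 41174 gene probes on the array, whose accession maps to these symbols were used. All 10 genes passed the filter on dim probes and stand among 21639 genes and transcripts tested. Alox5 was already known to be much lower in the mutant lines when the set was drawn up, and the set was defined on the mutant against wild-type contrast. For these 10 genes that contrast is therefore given as a description, without a test.

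Arachidonic acid is released from membrane phospholipids by cytosolic phospholipase A2 (Pla2g4a). 5-lipoxygenase (Alox5) turns it into leukotriene A4 with the help of the 5-lipoxygenase activating protein (Alox5ap), and leukotriene A4 is then converted to leukotriene B4 by its hydrolase (Lta4h) or to leukotriene C4 by its synthase (Ltc4s). The lipoxygenases Alox12 and Alox15 add oxygen at other carbons of the fatty acid, while the cyclooxygenases (Ptgs1, Ptgs2) make prostaglandin H2, which prostaglandin E synthase (Ptges) converts to prostaglandin E2. 5-lipoxygenase is best known from leukocytes rather than from pluripotent cells.

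RNA of 4 mouse embryonic stem cell (ESC) lines was hybridised to Agilent whole-genome arrays with Cy3, 1 array per line. Both wild-type lines (WT) carried intact ECAT15-1 (Dppa4) and ECAT15-2 (Dppa2), labelled 15-1+/+ and 15-2+/+. Both mutant lines (KO) were labelled 15-1CT/CT and 15-2-/-, that is, with both copies of Dppa2 targeted and in addition a conditional targeted allele at both copies of Dppa4; the contrast is between these compound genotypes. All lines came from E3.5 blastocysts of an intercross of 15-1+/CT, 15-2+/- mice on a mixed 129Sv and C57/BL6 background that had also been crossed with Cre or FLPe transgenic mice of unknown background, and all were grown on gelatin with LIF and 15% FCS, for 3 days before harvest. WT 1 and KO 1 came from mother 1046, and WT 2 and KO 2 from mother 875. The spread between lines of 1 group is the only error measured, and 2 lines per group limit its precision.

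The promoter windows of 4 members are shown here because these genes carry the patterns described below: Alox5 was the member with the largest difference, Pla2g4a was lower in both KO lines, Lta4h was higher in both, and Ptgs2 differed between the WT lines. Each window runs from 250 bases before to 50 bases after the start of a RefSeq transcript (GRCm38.p6), 5′ to 3′ on the gene's strand, with every CpG in capitals. They lie at chr6:116461129-116461428 (- strand) for Alox5, chr1:149961241-149961540 (- strand) for the upstream start of Pla2g4a, chr10:93453146-93453445 (+ strand) for Lta4h and chr1:150099781-150100080 (+ strand) for Ptgs2.
Alox5: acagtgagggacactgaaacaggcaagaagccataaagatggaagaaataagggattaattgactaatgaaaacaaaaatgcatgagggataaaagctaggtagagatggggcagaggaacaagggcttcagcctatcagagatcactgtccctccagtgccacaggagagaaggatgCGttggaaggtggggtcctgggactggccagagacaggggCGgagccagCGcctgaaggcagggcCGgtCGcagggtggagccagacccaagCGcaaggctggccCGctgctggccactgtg
Pla2g4a: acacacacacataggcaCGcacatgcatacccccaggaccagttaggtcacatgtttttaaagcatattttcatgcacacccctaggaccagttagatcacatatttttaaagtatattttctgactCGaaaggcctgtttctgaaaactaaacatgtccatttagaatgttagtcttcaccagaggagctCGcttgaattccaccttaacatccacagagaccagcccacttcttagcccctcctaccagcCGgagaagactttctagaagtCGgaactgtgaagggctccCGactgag
Lta4h: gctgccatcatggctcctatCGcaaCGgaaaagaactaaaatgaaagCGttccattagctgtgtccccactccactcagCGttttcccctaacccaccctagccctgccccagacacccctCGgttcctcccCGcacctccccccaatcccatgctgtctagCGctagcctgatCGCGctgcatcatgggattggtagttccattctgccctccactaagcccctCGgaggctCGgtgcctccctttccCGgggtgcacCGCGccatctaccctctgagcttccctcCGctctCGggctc
Ptgs2: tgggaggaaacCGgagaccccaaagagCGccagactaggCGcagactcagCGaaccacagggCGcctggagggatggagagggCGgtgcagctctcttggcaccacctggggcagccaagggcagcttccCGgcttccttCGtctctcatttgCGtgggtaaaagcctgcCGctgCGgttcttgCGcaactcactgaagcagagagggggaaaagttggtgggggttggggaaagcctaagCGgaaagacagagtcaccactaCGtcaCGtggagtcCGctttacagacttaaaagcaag
The Alox5 window holds 7 CpG, which is also the median over 32841 windows of the same length; 94.6% of all windows hold at least 1. The Pla2g4a window holds 6 CpG, and those of Lta4h and Ptgs2 hold 16 each; 67.0% of all windows hold fewer than 16. A GC box, searched as GGGCGG on both strands and overlapping the CpG count because it contains a CG, occurs 1 time in the Alox5 window and 1 time in that of Ptgs2, and these letters are not in the windows shown for Pla2g4a and Lta4h. Over all windows, 35.7% hold this motif. Of the 10 genes, 8 had a window in the RefSeq table, and Alox5ap and Alox15 had no entry matched.

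The share of probes called well above background ran from 68.5% to 70.4%, with 0 saturated spots. Dppa2 was at 12.09 and 12.03 log2 signal in WT and at 7.05 and 7.12 in KO lines and remained well above background on both KO arrays. Where its probe lies relative to the deletion was not checked. All 8 ESC marker genes with a probe, among them Dppa5a and Zfp42, were well above background on all 4 arrays. They were not level between the groups. All 8 had a positive log2 difference of KO minus WT, with a median of 0.79 beside 0.10 for all genes tested, and none passed the test. Log2 signals here are scaled to the 75th percentile of each array. They compare 1 probe between arrays and do not rank different genes by abundance.

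Alox5 was at or near background in the KO lines and bright in both WT lines. Its representative probe read 10.02 and 9.95 log2 signal in WT 1 and WT 2, against 3.24 and 3.48 in KO 1 and KO 2. In the scanner's own intensity units these are 1105 and 1019.6 against 9.48 and 10.1, and of the KO arrays that of KO 2 alone was called well above background. The WT lines differed by 0.07 on the log2 scale and the groups were separated by more than 6 log2 units. The WT mean was 9.98 ± 0.05 (SD, n = 2) and the KO mean 3.36 ± 0.17 (SD, n = 2), a measured difference of 98.5-fold (log2 difference -6.62, SE 0.15) that includes the KO 1 spot below that call. Within the pair of mother 875, where both spots were above background, it was -6.47; the -6.77 of the pair of mother 1046 rests on the KO 1 spot.

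All 3 Alox5 probes target the same RefSeq transcript accession and gave the same ordering of the groups. The dimmest read 7.74 and 7.77 in WT and 1.15 and 1.25 in KO lines, where neither array was above background. Against the lowest signal still called well above background on each KO array (3.24 and 3.33), that probe was 22.1-fold lower. Spots that are not called can lie above this signal, so this fold is not a strict bound. The brightest probe read 10.39 and 10.35 in WT, 5.97 in KO 1 and 2.30 in KO 2, so it showed a gap of 3.67 between the KO lines that the other probes did not show. Its spot on the KO 1 array carried the software's non-uniformity flag, and the probe was therefore left out of the fit. With flagged spots kept, it would represent the gene, with a log2 difference of -6.23. A model-based background correction (normexp, with an offset of 50), which lifts dim signals, reduced the main difference to -3.89. That correction changes how far the KO level is below that of WT, and the direction was the same under all 16 alternatives in which the gene could be fitted.

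**Figure D1:**
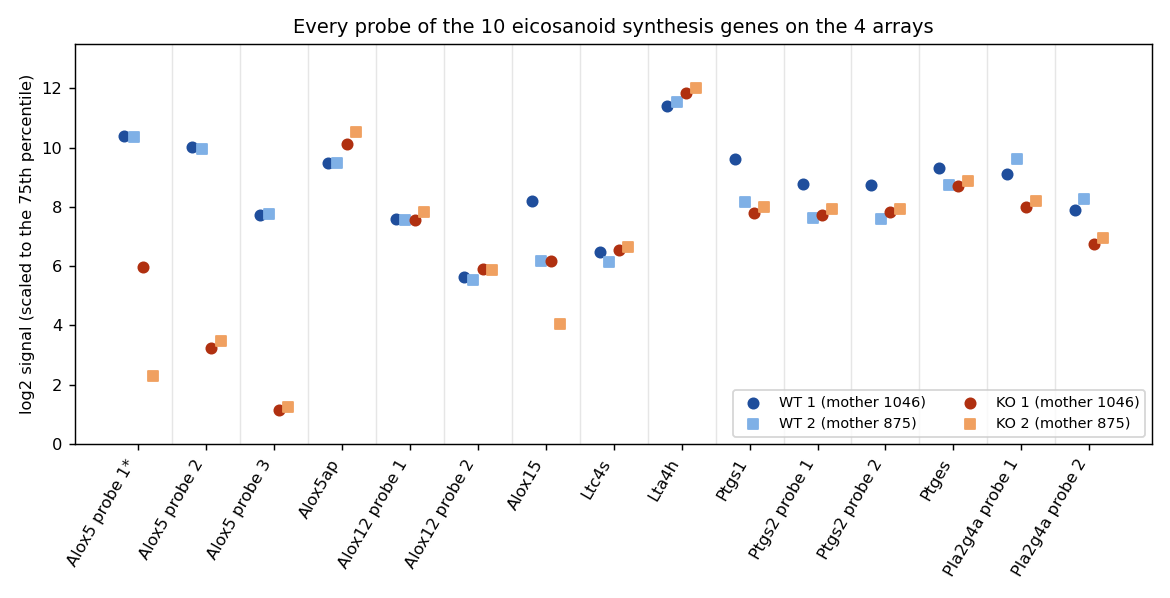
Log2 signal (vertical axis, scaled to the 75th percentile) of all 15 probes of the 10 genes on the 4 arrays, with WT lines in blue, KO lines in red and orange, circles for mother 1046 and squares for mother 875. An asterisk marks the probe with a flagged spot; the Alox5 probes lie between 7.74 and 10.39 in WT lines and at 5.97 or less in KO lines, and of the other genes Alox15 has the widest spread.

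The remaining genes of the leukotriene branch did not share this pattern. All 3 of them were higher in both KO lines than in both WT lines, as were 37.7% of all genes tested. Alox5ap, whose product presents arachidonic acid to 5-lipoxygenase, read 9.49 in each WT line, 10.13 in KO 1 and 10.52 in KO 2. The means were 9.49 ± 0.00047 (SD, n = 2) and 10.33 ± 0.28 (SD, n = 2), which makes KO lines 1.79-fold higher (log2 difference 0.84, SE 0.19). Lta4h read 11.42 and 11.55 in WT and 11.84 and 12.02 in KO lines, a 1.36-fold difference (log2 difference 0.44, SE 0.14) that was alike in the pairs, at 0.41 and 0.47. Ltc4s lay close to its WT range, with 6.50 and 6.15 in WT and 6.54 and 6.66 in KO lines. Its log2 difference of 0.27 (SE 0.18) came mainly from WT 2, the lowest of the 4 values, and was 0.04 within the pair of mother 1046. Without WT 2, it was 0.10. Signal of the transcripts for the activating protein and for the enzymes that act on leukotriene A4 thus remained well above background on all 4 arrays, including those where Alox5 signal was at or near background.

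Leukocyte markers were read beside Alox5, since leukocytes are its best known source. Of 11 leukocyte genes with a probe, 7 were tested, 0 fell and 1 rose in the KO lines, the lysosomal membrane gene Laptm5 (log2 change 2.49, SE 0.20, limma adjusted p = 0.0361). The log2 of the list's summed signal was 10.12 and 9.99 in WT and 11.17 and 11.52 in KO lines, and in the KO lines most of that sum came from Laptm5. The median log2 difference of the 7 was -0.03, with 4 negative and 3 positive. Ptprc, the pan-leukocyte CD45 gene, was at -0.95, the macrophage receptor gene Csf1r at -1.01 and Cd52 at 1.81, with none of them passing. Ptprc was well above background on 1 KO array, and its difference was -0.20 within the pair of mother 1046 and -1.70 within that of mother 875. The part of leukocytes in the Alox5 values was not tested. Adgre1, Itgam, Lyz2 and Spi1 were not well above background on any array. Neither were the mast cell genes Cpa3, Mcpt4, Tpsb2 and Ms4a2, and the other 2 mast cell genes did not pass the test. In bulk RNA, fewer cells of a type and less RNA per cell cannot be told apart.

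Some markers of differentiated cells also moved with the genotype. The log2 of the summed signal of 9 trophoblast genes was 18.14 and 18.52 in WT against 16.38 and 15.89 in KO lines, a sum carried mainly by the keratin genes Krt8 and Krt18. Krt8 fell (limma adjusted p = 0.0497), 7 other tested genes did not pass, and the median log2 difference was -1.98, with 6 of 8 negative. The largest difference was that of Hand1, just over the threshold (-4.75, SE 0.49, limma adjusted p = 0.0505). Tfap2c (0.45) and Ascl2 (0.21) were positive. For 10 endoderm genes the sum was 14.24 and 14.56 against 12.53 and 12.41, and Lrp2 made up most of it. The endocytic receptor gene Lrp2 and its adaptor gene Dab2 fell, and 7 did not pass. The median of the 9 tested endoderm genes was 0.53, with 5 positive and 4 negative. The transcription factor genes Gata4 (0.53), Gata6 (1.19), Sox7 (1.44) and Sox17 (1.42) were positive. The transcription factor gene Foxa2 (-0.96) was negative, as was Afp (-0.43). Ttr was not above background on any array. The part of such cells in the values of Alox5, Pla2g4a and Alox15, all of them lower in both KO lines, was not tested.

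Pla2g4a, which encodes 1 of the phospholipases listed here, was lower in both KO lines by both of its probes. Its representative probe read 9.13 and 9.60 in WT and 7.99 and 8.19 in KO lines, so no KO value reached the WT range. The means were 9.36 ± 0.34 (SD, n = 2) and 8.09 ± 0.14 (SD, n = 2), a 2.42-fold difference (log2 difference -1.27, SE 0.22). The other probe gave 7.89 and 8.25 against 6.74 and 6.96, a 2.33-fold difference. Within the pairs the representative probe differed by -1.13 and -1.41.

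Alox15 differed between genotypes and between mothers by about the same amount. It read 8.21 in WT 1, 6.18 in WT 2, 6.16 in KO 1 and 4.04 in KO 2, and every array was above background. WT 2 and KO 1, lines of opposite genotype from different mothers, thus read nearly the same. The KO line was lower than its WT partner by 2.05 on the log2 scale within the pair of mother 1046 and by 2.14 within that of mother 875, and the lines of mother 875 were lower than those of mother 1046 of the same genotype by 2.03 and 2.12. On group means this is a 4.26-fold difference between genotypes (log2 difference -2.09, SE 1.08, or 0.13 with mother as a block). It was -3.15 without KO 1 and -1.03 without KO 2, because the lines of 1 genotype are so far apart.

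Alox12, which encodes the platelet-type 12-lipoxygenase, was nearly level. Its representative probe read 7.60 and 7.55 in WT and 7.57 and 7.84 in KO lines, and the groups overlapped. The log2 difference was 0.13 (SE 0.16), and it turned to -0.0052 without KO 2. Its dimmer probe read 5.65 and 5.54 against 5.89 and 5.88, a difference of 0.29 with no overlap, so the probes disagree on whether the groups are separated.

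Of the prostaglandin genes, Ptgs1 and Ptgs2 varied more between the WT lines than between the genotypes. Ptgs1, the constitutive cyclooxygenase, read 9.62 in WT 1 against 8.16 in WT 2, 7.80 in KO 1 and 8.0 in KO 2. Both KO values were below both WT values, but WT 1 stood 2.75-fold above WT 2, and the log2 difference of -0.99 (SE 0.55) was -0.26 without WT 1 and -1.72 without WT 2.

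Ptgs2, the inducible cyclooxygenase, read 8.75 in WT 1, 7.58 in WT 2, 7.84 in KO 1 and 7.94 in KO 2. WT 1 was 2.26-fold above WT 2, whereas the KO lines lay between them. Its log2 difference of -0.28 (SE 0.45) turned to 0.31 without WT 1. Ptgs2 is printed on the array 10 times with this probe, and a different probe of the gene gave the same order of lines, with 8.76, 7.62, 7.71 and 7.93.

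Ptges, which acts after the cyclooxygenases, was also highest in WT 1, by a smaller margin. It read 9.32 in WT 1, 8.74 in WT 2, 8.70 in KO 1 and 8.87 in KO 2. The groups overlapped, and the log2 difference of -0.25 (SE 0.25) became 0.04 without WT 1.

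**Figure D2:**
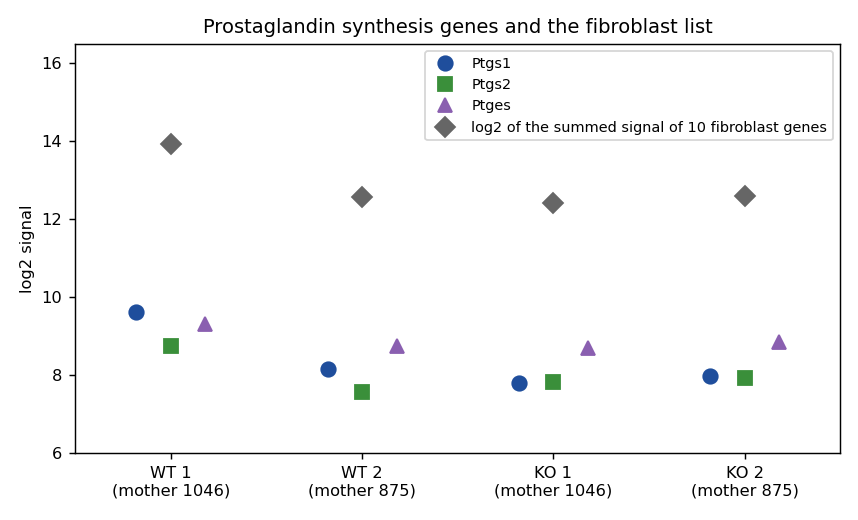
Log2 signal of Ptgs1, Ptgs2 and Ptges on each array, with the log2 of the summed signal of 10 fibroblast marker genes as grey diamonds; each point is 1 array. WT 1 is the highest for all of them, and the other 3 lines lie close together.

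The summed signal of the fibroblast markers was also highest in WT 1. Its log2 over 10 genes was 13.94 in WT 1, 12.58 in WT 2, 12.43 in KO 1 and 12.61 in KO 2. The largest part in WT 1 was Col1a1, at 12.47 against 10.67, 10.16 and 9.87 in WT 2, KO 1 and KO 2. The median difference of WT 2 from WT 1 over these genes was -1.48, but the list was not uniform. Mmp2 (10.72 and 10.74), Fbn1 (8.24 and 8.26) and Lum (5.15 and 5.28) were nearly level in WT 1 and WT 2. The remaining genes were lower in WT 2, and of these Thy1 was highest in KO 2 (11.56, against 11.37 in WT 1). None of the 10 was at background on all arrays. Between genotypes, 2 of them fell, the gelatinase gene Mmp2 and the fibrillin gene Fbn1, 0 rose and 8 did not pass. With mother as a block, limma called 0 genes, and the adjusted p of Laptm5, Krt8, Lrp2, Dab2, Mmp2 and Fbn1 lay between 0.083 and 0.119. The part of fibroblasts in the higher signal of Ptgs1, Ptgs2 and Ptges in WT 1 was not tested.

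Across the set, 4 of 10 genes (Alox5, Alox15, Pla2g4a, Ptgs1) had both KO arrays below both WT arrays, an arrangement found in 24.5% of all genes tested, and 3 (Alox5ap, Lta4h, Ltc4s) had both above, found in 37.7%. Alox5, Alox15 and Pla2g4a were at least 2-fold lower within both pairs, as were 6.94% of all genes, and 0 members were at least 2-fold higher within both, as were 1.56% of all genes. In Alox12, Ptgs2 and Ptges the pairs had opposite signs, which 23.9% of all genes did. At a limma adjusted p under 0.05, 1.67% of genes were called lower and 0.176% higher (1.84% in either direction); Alox5 was the 1 member among them, and since it was chosen on this contrast nothing is read from that. With mother as a block, 0 genes were called in either direction. That fit estimates a further term from the same 4 arrays, and even the targeted gene Dppa2 did not pass in it (limma adjusted p = 0.079). The median log2 difference was -0.26 over the 10 genes and 0.10 over all genes. Median centring of the arrays raises both. It moves the median of all genes to 0.26, and the middle members Ptgs2 and Ptges to -0.11 and -0.09.

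**Figure D3:**
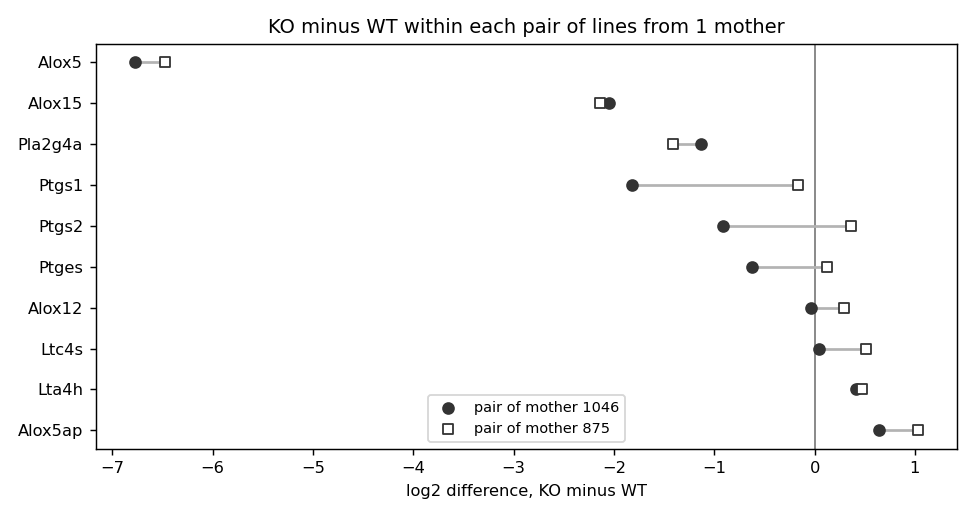
Log2 difference of KO minus WT (horizontal axis) for the 10 genes within the pair of lines from mother 1046 (filled circles) and from mother 875 (open squares), joined by a line. Alox5 lies at -6.77 and -6.47, far from the other 9, and Alox12, Ptgs2 and Ptges have their circle and square on opposite sides of 0.

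The difference between the lines of mother 875 and those of mother 1046 was not used to choose the genes and was tested for all of them. With genotype and mother as terms, limma called 0 of 21639 genes (0%) at an adjusted p under 0.05, against 1611 at an unadjusted p under 0.05, so none of the 10 passed. Alox15 had the largest such difference of the 10, a log2 difference of -2.07 (SE 0.13, limma unadjusted p = 9.4e-04, adjusted p = 0.665), with the line of mother 875 lower in both genotypes. Next came Ptgs1 with -0.63 (SE 0.52) and Ptgs2 with -0.54 (SE 0.41), where the WT lines gave -1.46 and -1.18 and the KO lines 0.20 and 0.10. For Alox5 it was 0.08 (SE 0.15). Between the WT lines alone, Alox15, Ptgs1 and Ptgs2 differed at least 2-fold, with all 3 lower in WT 2, compared with 3.13% of all genes lower and 4.99% different by that much in either direction; with 1 line each, this has no test.

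**Figure D4:**
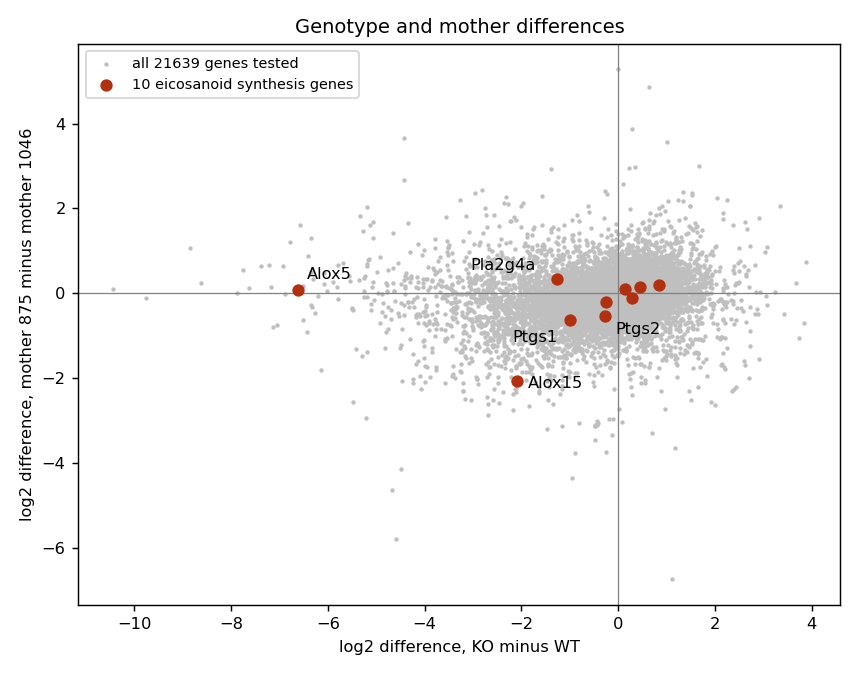
Log2 difference of KO minus WT (horizontal axis) against that of mother 875 minus mother 1046 (vertical axis) for all 21639 genes tested (grey) and the 10 eicosanoid synthesis genes (red). Alox5 lies far to the left at a mother difference near 0, and Alox15 lies near -2 on both axes.

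The genes whose profile over the 4 arrays lay nearest to that of Alox5, among 14363 other genes with a symbol, were Ecrg4, Ctsh, Dazl, Tmprss2 and AI854703. After each gene was centred on its own mean, their measured root mean square distance from Alox5 lay between 0.14 and 0.28 log2 units. These distances use KO values below background, so no order among the 5 is read from them. Ctsh, a cathepsin gene, read 9.44 and 9.51 in WT and 2.62 and 2.54 in KO lines. It was 72.8-fold lower against the lowest signal called well above background on the KO arrays. Dazl, which encodes a germ cell RNA-binding protein, was 15.7-fold lower and the transmembrane protease gene Tmprss2 46.5-fold lower against the same signals. Neither KO array was above background for any of these 5 genes. They were picked for likeness on these same arrays, which is a description of 4 values per gene.

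Among the other genes of eicosanoid metabolism, prostaglandin D synthase passed the test. Of 65 listed genes, 61 had a probe and 48 were tested. Of these, 1 fell, 0 rose and 47 did not pass (limma, adjusted p under 0.05 over all 21639 genes). Over all genes, 1.67% were called lower and 0.176% higher, so 1 call among 48 is near the overall share. Their median log2 difference was 0.09, beside 0.10 for all genes. Both KO arrays lay below both WT arrays in 12 of the 48 (24.5% of all genes) and above them in 15 (37.7% of all genes). Within both pairs, 9 of the 48 were at least 2-fold lower (6.94% of all genes) and 2 at least 2-fold higher (1.56% of all genes). The lists were not tested as a whole. The gene that fell was Ptgds, which encodes lipocalin-type prostaglandin D synthase. It read 6.91 and 6.80 in WT and 5.00 and 5.08 in KO lines, and so fell 3.53-fold (limma log2 change -1.82 with an SE of 0.13, adjusted p = 0.0281). The other 5 prostanoid synthases tested all had positive differences. With the mother as a block the call for Ptgds was lost (limma adjusted p = 0.0928), and over its 17 alternatives the adjusted p lay between 0.0261 and 0.213.

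The receptors were the list with the lowest median. Of 14 receptor genes, 13 had a probe and 9 were tested. None passed, 8 had a negative difference, and the median was -1.66. Ptger3, a prostaglandin E2 receptor, read 5.85 and 5.81 in WT and 3.76 and 3.09 in KO lines (log2 difference -2.41, SE 0.28, limma adjusted p = 0.0566), with KO 1 alone of the KO arrays above background. The thromboxane receptor gene Tbxa2r read 8.02 and 8.57 against 6.51 and 6.75 (log2 difference -1.66, SE 0.25, limma adjusted p = 0.0834). The leukotriene receptors, named after their values were seen because their ligands come from the Alox5 branch, showed wide spread between the KO lines. Ltb4r1, a receptor for leukotriene B4, read 10.46 and 10.61 in WT, 8.0 in KO 1 and 9.60 in KO 2. Ltb4r2 read 6.86 and 6.54 against 3.85 and 4.89, and Cysltr1, a receptor for cysteinyl leukotrienes, 9.0 and 9.12 against 7.52 and 5.30. Within each pair all 3 were at least 2-fold lower, as were 6.94% of all genes; their limma adjusted p lay between 0.0997 and 0.2106.

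**Figure D5:**
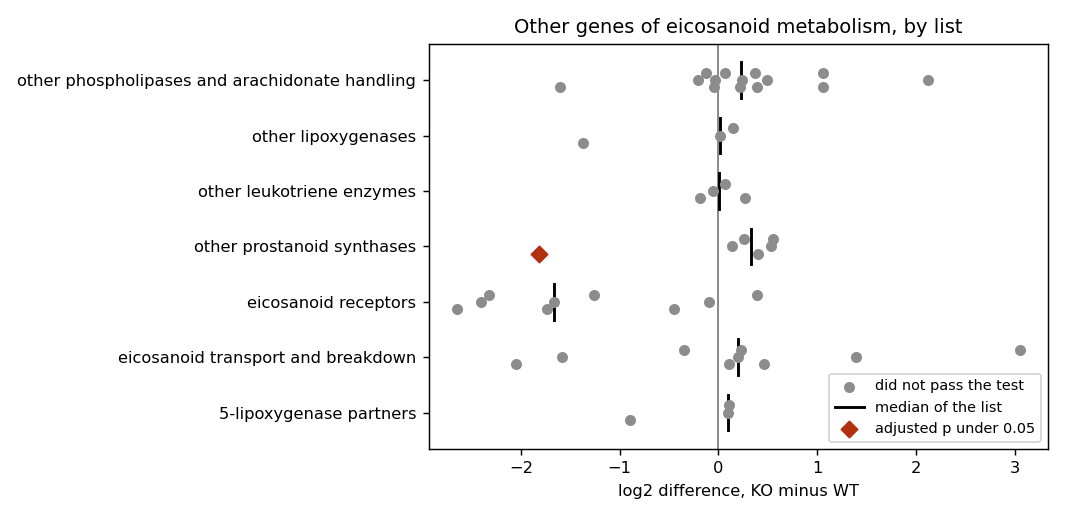
Log2 difference of KO minus WT (horizontal axis) for the 48 tested genes of 7 lists of eicosanoid metabolism, 1 point per gene, with the list's median as a black bar. Ptgds, the red diamond, is the gene that passed the test, and 8 of 9 receptors lie left of 0.

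Genes of transport and breakdown went both ways, and none of the 9 passed. Cyp4f14, a cytochrome P450 that inactivates leukotriene B4, read 3.75 and 4.33 in WT and 7.45 and 6.74 in KO lines (log2 difference 3.06, SE 0.36, limma adjusted p = 0.0585). Slco2a1, the prostaglandin transporter, had a log2 difference of -2.05 (SE 0.26, limma adjusted p = 0.0663). Of 14 other phospholipases and arachidonate-handling genes, 0 passed and 9 were positive, with Pla2g10 at 1.06 (SE 0.22) and Pla2g3 at 0.40 (SE 0.13). Among 3 other lipoxygenases, Alox12e had a log2 difference of -1.38 (SE 0.25, limma adjusted p = 0.100), with 7.86 and 7.36 in WT against 6.39 and 6.08 in KO lines, and Aloxe3 one of 0.14 (SE 0.24). None of the 4 other leukotriene enzymes passed, and the smallest p among them were those of Mgst3 (-0.19, SE 0.20) and Mgst2 (0.27, SE 0.67). Of 3 protein partners of 5-lipoxygenase, 0 passed: the coactosin-like gene Cotl1 had a log2 difference of 0.10 (SE 0.24), and the kinase gene Mapkapk2 one of -0.89 (SE 0.16, limma adjusted p = 0.101).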

How the data were processed

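The members and gene lists were chosen with earlier results of these data known. The intensity of each spot came from the authors' scanner files, written by Feature Extraction 10.7.3.1 with mm9 as array annotation, per the file headers; the processed intensity is background-subtracted and not scaled between arrays. The deposited series table holds log2 values that were read from the data as quantile-normalised (each column has a median of 6.55); it served as an alternative. GeneSpring GX11 is named by the labels for the study's own analysis.

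Here log2 of the processed intensity was shifted to a common 75th percentile. Flagged spots were left out, which removed 233 probes, and spots of a probe were averaged. Of 41174 probes, 26690 matched 1 symbol through a RefSeq table (GRCm38.p6). A probe was kept if some group had it well above background on both its arrays, and the brightest stood for its gene. Genotypes were tested on log2 values by limma 3.58.1 under R 4.3.3 (genotype alone, Benjamini-Hochberg adjustment at 0.05). A run on simulated data beforehand checked only that known changes were estimated at about their size, and did not check the calls. Where neither array of a group was above background and a fold is given against the lowest signal called well above background, it is not a strict bound.

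By rule, named genes are the 10 members, pathway genes that passed or else the 2 with the smallest p per list, markers that passed, the 2 brightest ESC genes, Dppa2, Dppa4 and the 5 genes nearest to Alox5. All other markers and pathway genes in the text were named outside this rule, with their values known. Equal replicate numbers share a mother, per the labels, so a fit with mother as a block was run; deviations of lines sharing a mother correlated at 0.19 across genes. Other scalings, background corrections, filters, probe summaries and leaving out each line were tried. The 4 arrays share 1 slide and scan time. Dppa4 had log2 signals of 13.37 and 13.54 in WT and 13.95 and 14.07 in KO lines.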

Additional observations from a re-analysis of the deposited data

Results flagged for a closer look

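For 3 of the 10 genes the KO line differed from its WT partner in opposite directions in the 2 pairs, as did 23.9% of all genes tested. In Ptgs2 the log2 difference was -0.92 (mother 1046) and 0.36 (mother 875), a gap of -1.28. In Ptges it was -0.63 and 0.12, a gap of -0.75, and in Alox12 -0.03 and 0.30, a gap of -0.33. With 1 line per genotype and mother, these differences between the pairs were not tested.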

How the results depend on the processing

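Alox5 kept its direction under all 16 alternatives that gave it a value; it was not in the fit where all 4 arrays had to be above background. Its log2 difference was -6.49 under quantile scaling, -6.46 under median centring, -6.50 in the deposited values, -3.89 with the normexp correction, -3.91 when quantile scaling was added to it, and -6.23 with flagged spots kept, an alternative chosen after seeing the data. Without 1 line it lay between -6.74 and -6.50. Of the other members, Ptgs2 and Ptges turned positive without WT replicate 1 and Alox12 turned negative without KO replicate 2; no other alternative changed a sign. The calls over all genes (361 lower, 38 higher) became 0 and 0 with the replicate block (mother), where 2736 and 2278 had an unadjusted p under 0.05 in limma, and 0 and 0 with all 4 arrays above background (2184 and 2444 unadjusted). Higher calls numbered 58 under median centring, 66 under normexp with the 75th percentile, 80 with an intensity trend and 10 with no filter. Without 1 line, a fit that assumes the lone line varies like the others, lower calls ranged from 0 to 679 and higher calls from 0 to 64, the upper values without KO replicate 1. The other pathway genes called lower, 1 in the main fit, were 0 under normexp with quantiles, with all 4 arrays above background and with the replicate block, and 0 to 3 without 1 line (Cysltr1, Lpcat3 and Ptger3 without KO replicate 1); an intensity trend called 1 higher, Cyp4f14. Under normexp with the 75th percentile the 1 called was Slco2a1 in place of Ptgds. Genes called between mothers numbered 0 in every alternative run.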

Other observations

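Of the listed pathway genes with a probe, 13 did not enter the fit. Among them, Pla2g4e read 4.54 in KO 1, where it was above background, and 1.01 to 1.27 in the other 3 lines. The thromboxane synthase gene Tbxas1 was above background in KO 2 alone, at 3.59 against 2.79 to 2.92 elsewhere, and the dipeptidase gene Dpep1 in KO 1 alone, at 3.67. Pla2g2e, Pla2g4f, Pla2g12b, Hpgds, Alox8, Dpep2 and the receptor genes Cysltr2, Ptgfr, Ptgdr and Fpr2 were not well above background on any array. These genes were named after their values were seen.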
